A study of Mus musculus with 28 samples.

Results

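This comparison set rod photoreceptors of rd1 mice against those of wild-type (WT) mice at postnatal day 2 (P2). It comprised 4 of the 28 libraries of the series, 2 of each genotype, chosen by the genotype and age in their labels. The rd1 mice were homozygous for the rd1 allele of Pde6b (Pde6b rd1/rd1), and both groups carried the TgNrlp-GFP transgene, a green fluorescent protein driven by the Nrl promoter. Retinas were dissociated with papain, GFP-positive cells were collected by flow cytometry, and their RNA was sequenced with a stranded mRNA kit. The strain of each line, and how many animals gave each library, are not given in the sources used here. The p-values therefore measure the spread between libraries, and line and allele cannot be told apart. The other 24 libraries covered P4, P6, P8 and P10. Of 45594 annotated genes, 18608 passed the filter on low counts and were tested. Of those, 14396 were protein-coding genes with a name of their own. They were kept apart from 878 predicted protein-coding genes (symbols such as Gm or Rik), 709 pseudogenes and 2625 genes of other biotypes.

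Rods are the light sensors of dim vision. In the dark, cyclic GMP holds their cation channels open, and light closes them through a G protein, transducin, that switches on the phosphodiesterase PDE6. Pde6b encodes its beta subunit. The rd1 allele carries a retroviral insertion in an intron and a nonsense codon, and rods homozygous for it degenerate after outer segments begin to form. Mouse rods are born over a period that spans birth, so at P2 many are newly born and have no outer segment, and the retina still holds dividing progenitors.

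The GFP-sorted cells had the transcripts that define rods. Nrl, the transcription factor that directs cells to the rod fate, stood at 1629 and 2082 CPM (counts scaled to a common library size by TMM) in the rd1 libraries and at 1485 and 2180 in WT. Nr2e3, the receptor that represses cone genes in rods, stood at 2101 and 2033 against 1995 and 2353. Markers of retinal progenitors were read in every library, at summed levels of 2692 and 3853 CPM in rd1 and 1694 and 2261 in WT over 14 genes. In sorted bulk samples, fewer cells of a type and less RNA per cell cannot be told apart. The libraries also differed by genotype in depth. Total counts were 18.3 M and 20.5 M in rd1 and 12.3 M and 13.3 M in WT. Gm42418, a gene that overlaps ribosomal RNA sequence, stood at 276 and 280 CPM in rd1 and at 13 and 45.5 in WT.

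Pde6b (chr5:108388391-108432397, GRCm38) was lower in rd1 rods at P2. It stood at 97.4 and 130 CPM in rd1 and at 467 and 705 CPM in WT. Both rd1 libraries lay below both WT libraries. The log2 fold change was -2.37 ± 0.37 (SE), with an adjusted p of 0.000334 in edgeR's quasi-likelihood test. The call held without each of the 4 libraries in turn, at adjusted p of up to 0.0229. In the transcript table, scaled by the same factors, the protein-coding transcript Pde6b-001 stood at 57.0 and 78.0 CPM in rd1 and at 350 and 524 in WT. The retained-intron transcript Pde6b-002 stood at 33.6 and 43.0 CPM in rd1 and at 101 and 146 in WT. Transcripts of the allele were thus read in rd1, and those annotated as coding made up a smaller part of them than in WT.

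Across all classes, 522 of 18608 genes (2.81%) differed between rd1 and WT at P2, 265 higher (1.42%) and 257 lower (1.38%) in rd1. A gene is called here when its adjusted p (Benjamini-Hochberg) is under 0.05. The classes contributed unequally. Of the 14396 named protein-coding genes, 287 (1.99%) were called, 183 higher (1.27%) and 104 lower (0.722%). Of the predicted protein-coding genes 73 (8.31%) were called, 24 higher and 49 lower, and of the pseudogenes 77 (10.9%), 39 higher and 38 lower. The median size of a called change was 1.45 on the log2 scale in named protein-coding genes, 3.07 in predicted genes and 5.90 in pseudogenes. All 287 named calls had libraries that did not overlap between genotypes, a property of 41.8% of all named protein-coding genes tested. Changes of named genes were mostly moderate. Of the 287, 94 exceeded 4-fold and 83 were under 2-fold.

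Part of the named calls fell on genes with a near-identical copy among the other annotated genes. Such copies can be processed pseudogenes, which arise when a messenger RNA is copied back into the genome, or duplicates of the gene. Reads of the copy and its parent differ at few bases. Positions were not compared, so genes that overlap at the same locus would count as well. A copy was counted where at least 98% of bases were identical over at least 80% of its length and 200 bases. Of the named genes tested 4.85% had one, against 27.9% of those lower in rd1 (29 of 104) and 5.46% of those higher (10 of 183). Rpl26 (chr11:68901583-68906989), a protein of the large ribosomal subunit, is an example. It stood at 44.9 and 45.9 CPM in rd1 and at 236 and 218 in WT, a log2 fold change of -2.32 ± 0.17 (edgeR adjusted p 6.42e-09). Its copy Gm15772 (chr5:3236431-3236868) stood at 181 CPM in both rd1 libraries and at 0 and 0.17 CPM in WT. The summed counts of Rpl26 and its 4 copies were 227 and 227 CPM in rd1 and 236 and 218 in WT. The gene and this copy are identical at 436 of the 438 bases of the coding sequence, and the substitutions are C177T and T288C, counted from 1 at the A of the Rpl26 start codon. The stretch from base 157 to base 306, from the GENCODE M21 transcripts, is shown because it holds both differing bases. Capitals mark the differing bases.
Rpl26: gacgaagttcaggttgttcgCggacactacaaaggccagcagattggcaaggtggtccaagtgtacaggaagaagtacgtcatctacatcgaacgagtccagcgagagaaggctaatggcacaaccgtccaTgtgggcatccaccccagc
Gm15772: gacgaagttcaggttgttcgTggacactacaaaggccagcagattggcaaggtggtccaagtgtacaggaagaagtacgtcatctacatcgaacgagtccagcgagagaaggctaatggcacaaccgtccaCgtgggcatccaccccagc

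Summing each gene with its copies changed the outcome for most such genes. Of the 39 called genes with a copy, 23 were no longer called, 17 of them lower in the first test and 6 higher. The effect shrank to under a 0.5 share of its first size in 18 of the 39, and in 0 of the 248 without a copy. Rpsa, a protein of the small ribosomal subunit, stood at 165 and 157 CPM in rd1 and at 395 and 457 in WT, and its pseudogene Rpsa-ps10 at 511 and 491 against 0.75 and 0.70. The log2 fold change of Rpsa went from -1.41 to 0.60, with an adjusted p of 0.16. Ahcy, the enzyme that breaks down S-adenosylhomocysteine, went from -3.43 to 0.39 once its copies, Gm4737 among them, were added. Its levels alone were 3.41 and 4.16 CPM in rd1 and 41.6 and 39.8 in WT. Rpl21 went from -2.52 to -0.12, Rpl35a from -1.59 to -0.37, and Capza1, a subunit of the actin-capping protein, from -1.45 to -0.46. Phb (prohibitin, of the inner mitochondrial membrane) went from -0.71 to 0.00. Psmb5, a catalytic subunit of the proteasome, remained called when summed, as did Ublcp1 and Cdc26. Of the 248 called genes without a copy, 170 were called in the fit of summed counts. A fit of named protein-coding genes alone, without summing, called 205 genes, and the fit of summed counts 202. Both were chosen after seeing the data.

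**Figure D1:**
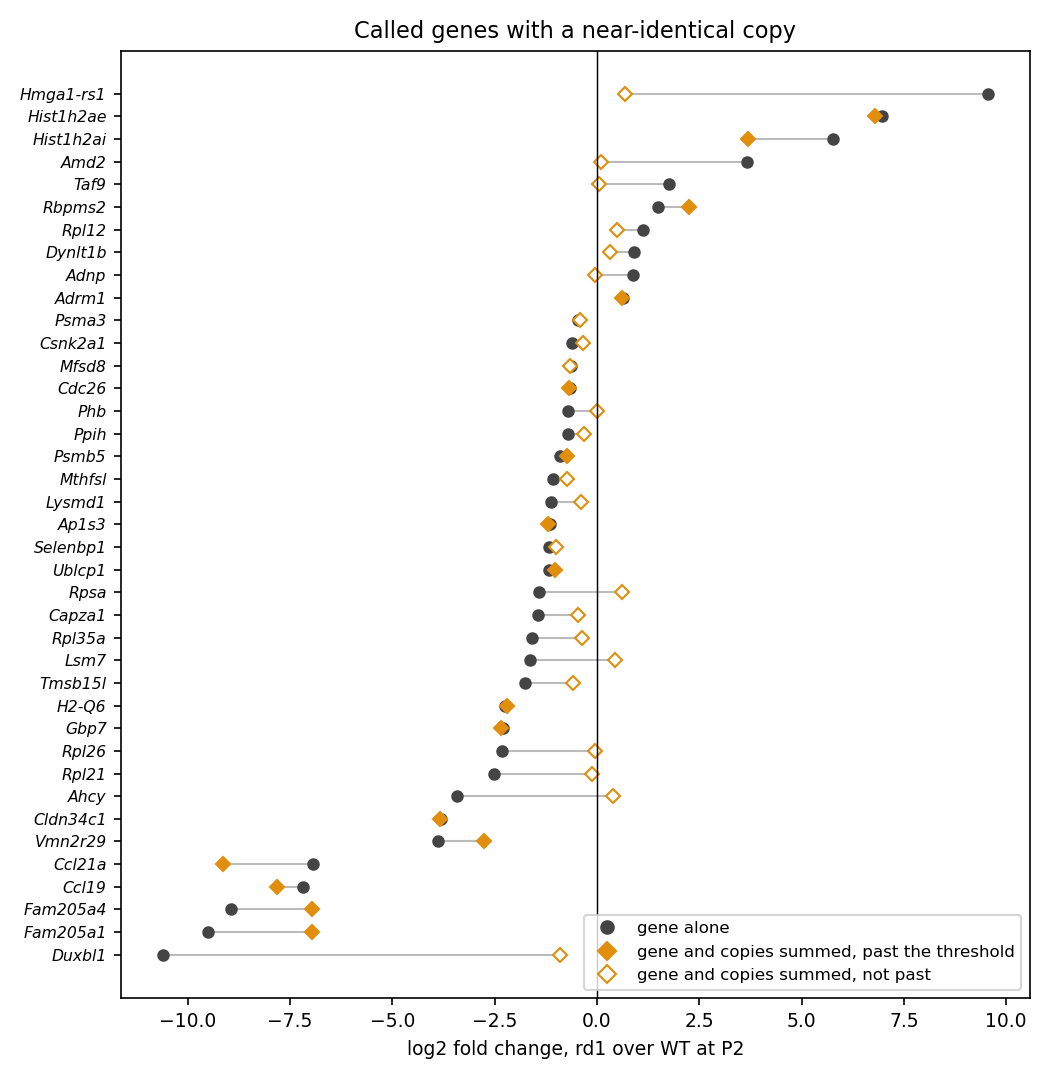
The 39 named protein-coding genes called at P2 that have a near-identical copy, with the log2 fold change of the gene alone (circles) and of the gene and its copies summed (diamonds, filled where past the threshold). For Rpl26, Rpl21, Rpsa and Ahcy the diamond lies near or beyond 0, while for 16 of the 39 it stays past the threshold on the same side.

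With 2 libraries a group, 1 library can decide a call, so the calls were repeated without each P2 library in turn. Of the 287 named calls, 59 (30 higher and 29 lower) held in all 4 of these fits, and 57 held in 0 of them. Of the 59, 46 have no near-identical copy, 28 higher and 18 lower. The number of named calls was 128 without rd1 library 1, 102 without rd1 library 2, 105 without WT library 1 and 638 without WT library 2. The genes described in the next 2 paragraphs are among the 46. Kazn, Tshz2, Klhl33, Akr1e1, Phf24 and Eps8l1 were picked from these after their values were seen, and the others follow the rule for named genes.

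Among the genes higher in rd1 were an enzyme of purine metabolism, a secreted protease and a transporter of the cell surface. Pnp, a purine nucleoside phosphorylase, stood at 110 and 115 CPM in rd1 and at 14.3 and 14.5 in WT (log2 fold change 2.97 ± 0.32, edgeR adjusted p 2.7e-06). The spread within each genotype was small for Pnp beside the 7.82-fold gap between them. Mmp2, a secreted metalloprotease that cleaves matrix, stood at 85.2 and 108 CPM against 10.7 and 13.4 (3.00 ± 0.23, edgeR adjusted p 1.04e-08). Slc6a2, the noradrenaline transporter, stood at 264 and 290 CPM against 29.7 and 35.8 (3.08 ± 0.40, edgeR adjusted p 3.88e-05). Cspg5, a brain chondroitin sulfate proteoglycan, was the most abundant of the group and its change one of the smallest. It stood at 588 and 655 CPM against 257 and 358 (1.02 ± 0.16, edgeR adjusted p 0.000419). Sfrp4, a secreted inhibitor of Wnt signalling, was nearly unread in WT, at 0.79 and 0.39 CPM, and stood at 12.3 and 11.9 in rd1. PISD, listed on an unplaced scaffold and named as a phosphatidylserine decarboxylase, Zfp949, Fam69a, Kazn, Tshz2 and Klhl33 were higher too, with log2 fold changes from 1.45 (Kazn) to 3.33 (Klhl33).

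The lower genes, beside Pde6b, had varied roles. Copa, the alpha subunit of the COPI coat of Golgi vesicles, stood at 279 and 279 CPM in rd1 and at 489 and 443 in WT (-0.74 ± 0.12, edgeR adjusted p 0.000827). Rab6b, a small GTPase of Golgi transport that is abundant in neurons, stood at 24.1 and 28.5 CPM against 157 and 175 (-2.66 ± 0.31, edgeR adjusted p 8.79e-06). The rd1 libraries agreed closely with each other for Copa and Rab6b and did not overlap WT. A few genes were close to absent from rd1 rods. Slc15a2, a proton-coupled peptide transporter, stood at 0.84 and 0.45 CPM against 195 and 175, Col17a1, a transmembrane collagen, at 1.13 and 0.70 against 72.2 and 115, and Myof (myoferlin) at 0.98 and 0.61 against 16.2 and 20.4. Phf24, Akr1e1, Eps8l1 and Hfm1, a helicase of meiosis, lay between -5.23 and -2.50 on the log2 scale.

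**Figure D2:**
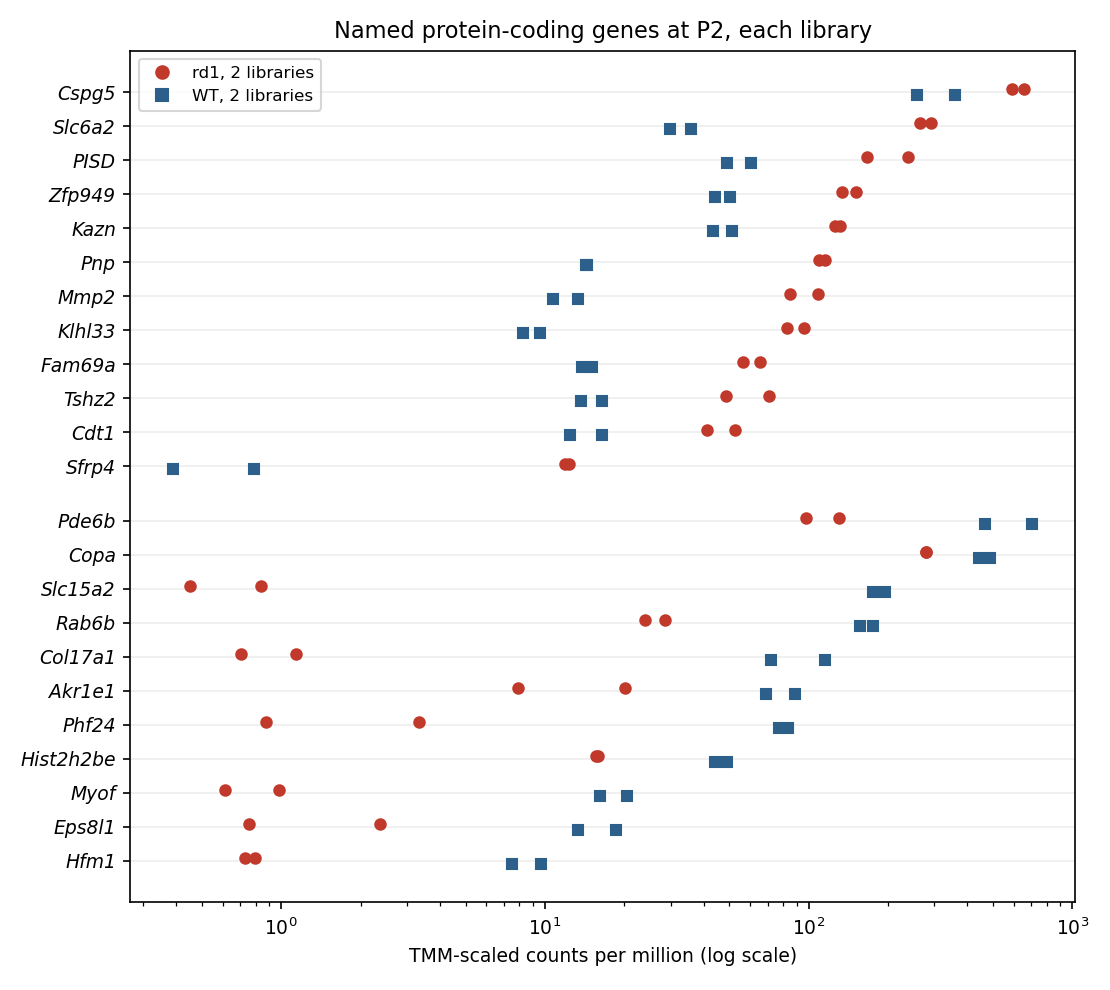
Levels of 12 higher and 11 lower named protein-coding genes at P2 in each library (TMM-scaled CPM, log axis), with rd1 as circles and WT as squares. The genotypes are apart for each gene, from Copa at 279 against 443 to 489 CPM to Slc15a2 at 0.84 and 0.45 against 195 and 175.

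Several called genes lay side by side in the genome. Of 282 called genes on placed chromosomes, 93 (33.0%) had another called gene within 500 kb, and 22.7% of tested genes had one. Of the 57 genes on placed chromosomes whose calls held in all 4 fits, 13 (22.8%) had another such gene within 500 kb, while 4.87% of tested genes had one. Mmp2 (chr8:92827328-92853417) and Slc6a2 (chr8:92960079-93001667) are neighbours, and Ces1a, also higher, ends the run of 221 kb, in which 5 named genes were tested. On chromosome 14, Parp2, Klhl33, Osgep, Pnp, Rnase9 and Rnase11 lie within 242 kb and were all higher, 6 of 10 tested. On chromosome 4, Ccl19, Ccl21a, Fam205a1, Fam205c and Phf24 lie within 190 kb and were all lower, 5 of 5 tested. Around Pde6b itself, 6 of the 80 genes tested within 5 Mb were called (7.5%), against 1.96% elsewhere, and within 20 Mb 8 of 315 (2.54%).

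The series' title speaks of metabolic imbalance and mitochondrial stress, so lists of energy metabolism and of stress responses were examined. Their counts stand beside 1.27% of all named genes higher and 0.722% lower. Of 74 nuclear genes for subunits of oxidative phosphorylation, 0 were higher and 1 was lower, and the median log2 fold change was 0.09, beside 0.05 over all named genes. Of 36 genes of the citrate cycle and pyruvate entry 0 were called in edgeR or DESeq2, 4 at an unadjusted p under 0.05 (median 0.00). Mdh1, a malate dehydrogenase, stood at 167 and 167 CPM in rd1 and at 217 and 233 in WT with an adjusted p of 0.181. Glycolysis and lactate genes had 1 higher and 1 lower of 29 (median -0.12). Pfkp, the platelet type of phosphofructokinase, stood at 49.6 and 25 CPM against 105 and 105 (-1.49 ± 0.37, edgeR adjusted p 0.0265), and its call was lost without rd1 library 2 (0.336), WT library 1 (0.138) or WT library 2 (0.056). Slc16a8, a lactate transporter, stood at 6.79 and 5.69 CPM against 1.60 and 2.68 (adjusted p 0.0129), and was not called without rd1 library 1 (0.0988) or WT library 1 (0.237). The 13 proteins encoded by mitochondrial DNA had a median of -0.44, with 0 called in edgeR or DESeq2 and 2 at an unadjusted p under 0.05. In 8 of the 13 both rd1 libraries lay below both WT libraries, a property of 17.3% of all named genes. An example is mt-Co2, a subunit of cytochrome oxidase, at 1111 and 1049 CPM against 2169 and 1928 (adjusted p 0.302). That median was 0.04 once each library's trend with GC content, described in a later paragraph, was removed. Of 39 genes of fatty acid oxidation and acyl-CoA metabolism, 1 was higher and 0 lower (median 0.00). It was Acot1, a cytosolic acyl-CoA thioesterase, at 24.5 and 19.8 CPM in rd1 and at 2.47 and 2.45 in WT (3.16 ± 0.67, edgeR adjusted p 0.00835). Its call was lost without rd1 library 1 (0.0511) or WT library 1 (0.123), and it was also called higher at each of the 4 later ages. Of the 47 genes of mitochondrial upkeep, only Phb was called, one of those with a copy. Of 26 genes of one-carbon metabolism 1 was higher and 1, Ahcy, also a gene with copies, lower. The unfolded protein response (33 genes) and heat shock genes (22) had 0 called in edgeR and 1 each in DESeq2, with 5 and 4 at an unadjusted p under 0.05 in edgeR. Atf4, the transcription factor of the integrated stress response, stood at 687 and 975 CPM in rd1 and at 457 and 448 in WT, with an adjusted p of 0.0841.

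The lists of the rod programme had medians near 0. Of 24 genes of rod phototransduction, 2 were lower, Pde6b among them, and 0 higher, with a median of -0.04. Without WT library 1 the median of the phototransduction list was -0.40 and without WT library 2 it was 0.46, so its sign rests on which WT library is used. Of the photoreceptor transcription factors (15), outer segment genes (19), cilium genes (38) and synapse genes (26), 0 were called in edgeR, with 2, 1, 1 and 3 at an unadjusted p under 0.05 and 2, 0, 1 and 0 called in DESeq2. Otx2, the homeobox factor upstream of Crx, stood at 1101 and 1312 CPM against 2043 and 2027 with an adjusted p of 0.0506. Rax, a homeobox factor of the early retina, stood at 516 and 544 CPM against 85.2 and 234, with an adjusted p of 0.0565. For both, rd1 and WT libraries did not overlap.

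The list with the highest median was that of immediate early genes, which are transcribed within minutes of a stimulus or of tissue dissociation. Its median was 1.60 over 28 genes tested, 21 of them with both rd1 libraries above both WT libraries, a property of 24.5% of named genes. Of the 28, 4 were called, all higher, beside 1.27% of all named genes higher. Jund stood at 275 and 353 CPM in rd1 and at 35.2 and 89.0 in WT (2.34 ± 0.60, edgeR adjusted p 0.0368), and Junb at 49.7 and 77.7 against 1.86 and 9.97 (3.42 ± 0.92, edgeR adjusted p 0.0456). Both lost the call without rd1 library 1 (0.0815 each), rd1 library 2 (0.188 and 0.206) or WT library 1 (0.394 and 0.399). Klf2 (2.71 and 3.99 CPM against 0.17 and 0) and Arc (4.79 and 3.56 against 0.84 and 0.50) were low throughout. Klf2 was called only when all libraries or all but rd1 library 1 were used, with adjusted p of 0.0825 to 0.0892 in the other fits. Arc kept its call without rd1 library 2 but not without rd1 library 1 (0.103), WT library 1 (0.104) or WT library 2 (0.0901). Fos stood at 145 and 146 CPM against 16.1 and 6.35 with an adjusted p of 0.255, and its genotypes did not overlap. With the GC trend removed the list's median was 1.23, with 1 gene called. At P4, P6, P8 and P10 the median of the list was 0.69, 0.67, 0.53 and 2.00. The rd1 libraries were deeper than the WT libraries at P4, P6 and P10 as at P2, and at P8 they held 11.1 M to 13.8 M counts beside 12.7 M and 13.2 M in WT. A fit of counts thinned to the smallest library was run, but its median for this list is not reported here. The part of depth in these values was otherwise not tested.

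Srf, which encodes the factor that binds CArG boxes and drives many immediate early genes, was higher in rd1, as was Dusp5, a phosphatase that acts on ERK kinases in the nucleus. These genes were chosen after their values were seen. Srf stood at 136 and 305 CPM in rd1 and at 44.1 and 52.0 in WT (2.20 ± 0.45, edgeR adjusted p 0.0062), and Dusp5 at 146 and 269 against 49.4 and 72.6 (1.77 ± 0.43, edgeR adjusted p 0.0234). In both genes rd1 library 2 was the higher, and both calls were lost without rd1 library 2 (0.172 and 0.298) or WT library 1 (0.122 and 0.295). Among 11350 tested named genes with a RefSeq promoter, 1.45% held a CArG box, searched on both strands by its usual consensus, in the 250 bases before the start, and 2 genes held more than 1. These were Srf and Dusp5. Of the 141 higher genes with a promoter 4 (2.84%) held a box, Kctd15 and Nr2f6 being the others, and of the 78 lower genes 1 (1.28%). Both promoters (RefSeq, GRCm38.p6) are shown with the boxes in capitals. In Srf (chr17:46556163-46556412, minus strand) they begin 82 and 62 bases before the start, and in Dusp5 (chr19:53528895-53529144, plus strand) 82 and 72 bases before it, directly beside each other.
Srf: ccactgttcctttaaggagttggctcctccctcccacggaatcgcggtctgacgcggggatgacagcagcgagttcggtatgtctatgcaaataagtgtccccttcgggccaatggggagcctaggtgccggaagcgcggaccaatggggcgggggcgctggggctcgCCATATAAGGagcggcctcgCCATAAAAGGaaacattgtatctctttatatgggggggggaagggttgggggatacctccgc
Dusp5: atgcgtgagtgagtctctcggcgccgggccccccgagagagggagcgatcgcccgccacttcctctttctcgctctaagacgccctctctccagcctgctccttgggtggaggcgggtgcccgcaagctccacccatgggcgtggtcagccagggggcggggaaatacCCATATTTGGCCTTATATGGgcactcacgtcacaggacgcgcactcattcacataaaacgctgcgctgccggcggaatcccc

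Genes of dividing and immature cells formed the next group, as levels rather than calls. Of 46 cell cycle genes, 41 had a log2 fold change above 0 and the median was 0.77, but only Cdt1 was called. Cdt1, which licenses origins of replication, stood at 52.5 and 41.1 CPM in rd1 and at 16.5 and 12.5 in WT (1.69 ± 0.32, edgeR adjusted p 0.00302), and the call held without each library in turn, at adjusted p of up to 0.0498. Mki67 and Top2a, markers of proliferation, overlapped between genotypes. Mki67 stood at 529 and 271 CPM in rd1 and at 344 and 167 in WT, so the lower rd1 library fell below the higher WT library. All 14 progenitor markers had values above 0, with a median of 0.82 and 0 called in edgeR, 3 at an unadjusted p under 0.05, and 1 in DESeq2. Hes5, a repressor that acts downstream of Notch, stood at 143 and 152 CPM in rd1 and at 24.4 and 32.3 in WT (2.38 ± 0.68, adjusted p 0.0638), and Hes1 at 63.7 and 54.9 against 16.1 and 9.93 (adjusted p 0.165). Of 35 Notch pathway and progenitor genes 30 lay above 0 (median 0.65) and 0 were called in edgeR, 9 at an unadjusted p under 0.05, and 2 in DESeq2. The medians of the progenitor markers ran from 0.51 to 1.23, and of the cell cycle list from 0.38 to 1.22, when 1 P2 library was left out. At P4, P6, P8 and P10 the cell cycle median was 0.00, -0.24, 0.28 and -0.02. Median GC content was 57.0% in the progenitor markers, 55.6% in the Notch list and 49.4% in the cell cycle list, beside 50.9% in named genes. Named genes of 54.5% to 56.3% GC had a median log2 fold change of 0.15, and those of 56.3% to 58.3% one of 0.22. The list medians given here are without removal of the GC trend.

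The values were also set against the time course of WT rods. Among named genes, the 200 with the largest fall from P4 to P10 in WT, chosen without any P2 library, showed a P2 median of 0.66 on the log2 scale. In 171 of them the value was above 0 and in 29 below, and in 103 both rd1 libraries lay above both WT libraries, against 24.5% of all named genes. Of the 200, 0 were called in edgeR, 31 at an unadjusted p under 0.05, and 3 in DESeq2. The 200 with the largest rise from P4 to P10 had a median of -0.03, with 3 higher and 1 lower. Of all named genes 1.27% were called higher and 0.722% lower, so these counts lie near the shares over all named genes. Without 1 P2 library the first median ran from 0.43 to 0.99 and the second from -0.08 to 0.25. Both are given without removal of the GC trend.

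**Figure D3:**
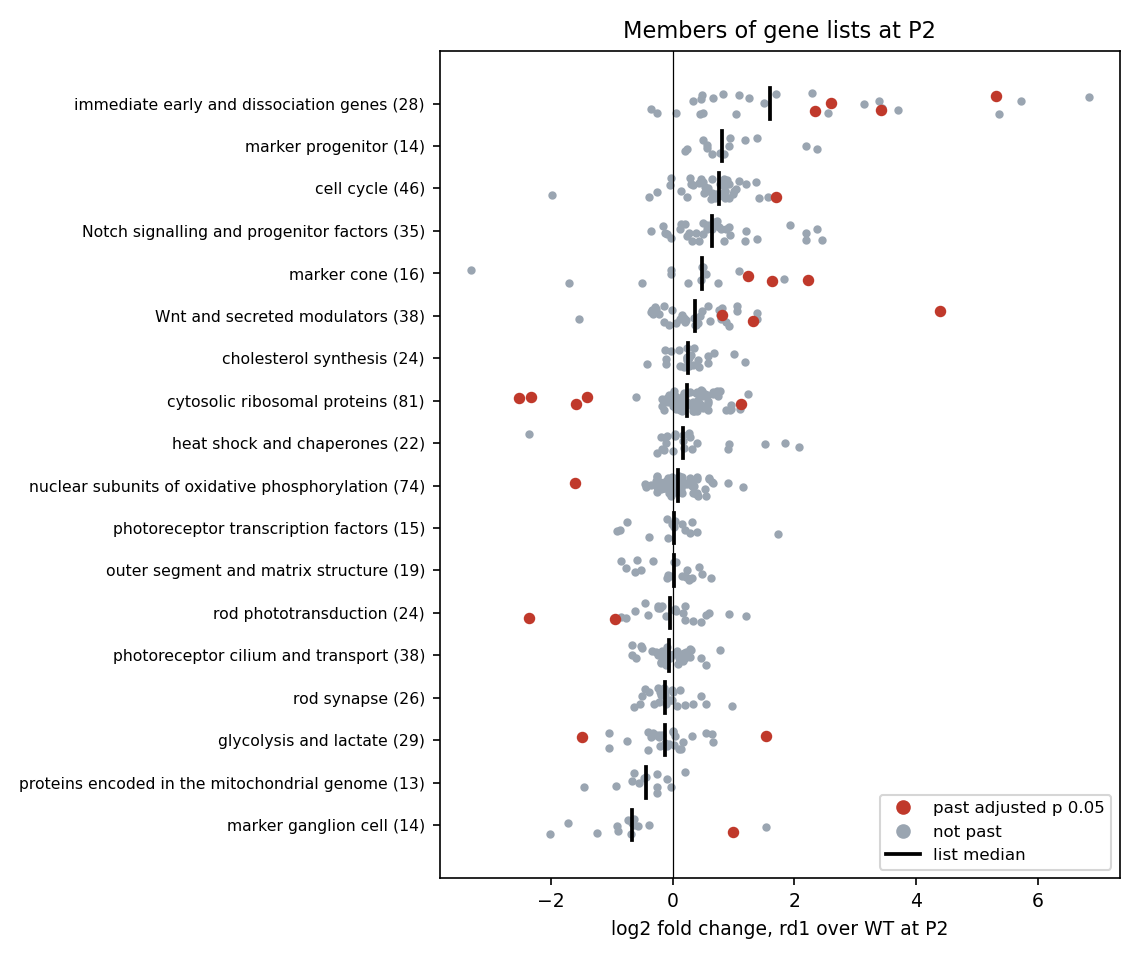
Log2 fold change at P2 of each tested member of 18 gene lists (number tested in brackets), with called genes in red and list medians as black bars. Immediate early genes (median 1.60), progenitor markers (0.82) and cell cycle genes (0.77) lie to the right, with few called members, and the lists of the rod programme lie around 0.

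Cone markers and Wnt genes held a few calls. Of all named genes 1.27% were higher and 0.722% lower. Of 16 cone markers 3 were higher and 0 lower, with a median of 0.49. Thrb, the thyroid hormone receptor that patterns cone opsins, stood at 50.3 and 66.1 CPM in rd1 and at 25.3 and 24.3 in WT (1.23 ± 0.25, edgeR adjusted p 0.00544). Cnga3, the cone channel subunit, stood at 20.6 and 34.5 CPM against 10.7 and 7.10 (adjusted p 0.0124), and Sall3, a zinc finger factor, at 23.6 and 28.4 against 5.54 and 5.57 (adjusted p 0.023). None of the 3 calls held in every fit. Thrb was lost without rd1 library 2 (0.105) or WT library 1 (0.058), Cnga3 without rd1 library 2 (0.216) or WT library 2 (0.0859), and Sall3 without any single library (0.065 to 0.205). The opsin Opn1sw stood at 179 and 340 CPM against 156 and 88.3 and Rxrg at 46.7 and 46.3 against 46.7 and 48.2, neither called. Of 38 Wnt genes 3 were higher, Sfrp4, Fzd4 and Axin2, and 0 lower. Fzd4 and Axin2 were called in none of the 4 fits that leave out a library (adjusted p 0.0558 to 0.311 and 0.0518 to 0.394).

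Markers of other retinal cells showed no called group. Müller glia (14 genes), bipolar cells (15), amacrine or horizontal cells (16), microglia (16) and vessels (13) had 0 called in edgeR, with 4, 2, 2, 1 and 1 at an unadjusted p under 0.05 and 0, 1, 1, 0 and 1 called in DESeq2. The summed Müller glia markers stood at 1643 and 1275 CPM in rd1 and at 923 and 1149 in WT, and the bipolar markers at 1547 and 1629 against 2327 and 2403. Otx2, on both this list and that of photoreceptor factors, makes up most of the bipolar sum, and the 14 other markers summed to 446 and 318 CPM in rd1 and to 283 and 376 in WT. Microglia markers summed to 38.1 and 22.6 CPM against 22.8 and 28.4. Of 14 ganglion cell markers only Nefh, a neurofilament, was called, higher, at 22.9 and 20.3 CPM against 10.9 and 10.8 (adjusted p 0.0235), and it was called in none of the leave-one-out fits (0.0684 to 0.158). The list's median was -0.67 with all libraries and 0.69 without WT library 1, whose markers summed to 223 CPM beside 98.4 to 124 in the other 3.

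Values at P2 also followed the GC content of the genes. Named genes were split into 10 equal groups by the GC content of their transcripts. The median log2 fold change climbed from -0.14 in the lowest group (31.9% to 42.9% GC) to 0.42 in the highest (58.3% to 72.8%). Calls followed it. Of the lowest group 0.419% of genes were higher and 1.33% lower, and of the highest 4.05% and 0.14%. The median GC content was 56.4% in higher genes, 47.4% in lower genes and 50.9% in all named genes tested. The same climb ran from -0.09 to 0.31 at P4, -0.06 to 0.27 at P6, 0.02 to 0.08 at P8 and -0.25 to 0.47 at P10. With the trend of each library removed, an alternative chosen after seeing the data, 236 named genes were called and 192 of the 287 were among them, 111 of the higher and 81 of the lower. Pnp (2.94), Mmp2 (2.95), Slc6a2 (3.10), Rab6b (-2.99) and Pde6b (-2.34) remained called there, and Jund (1.37, adjusted p 0.131) did not. Depth and genotype move together at P2, and with counts thinned to the smallest library 258 named genes were called. The part of GC content in the calls was otherwise not tested.

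**Figure D4:**
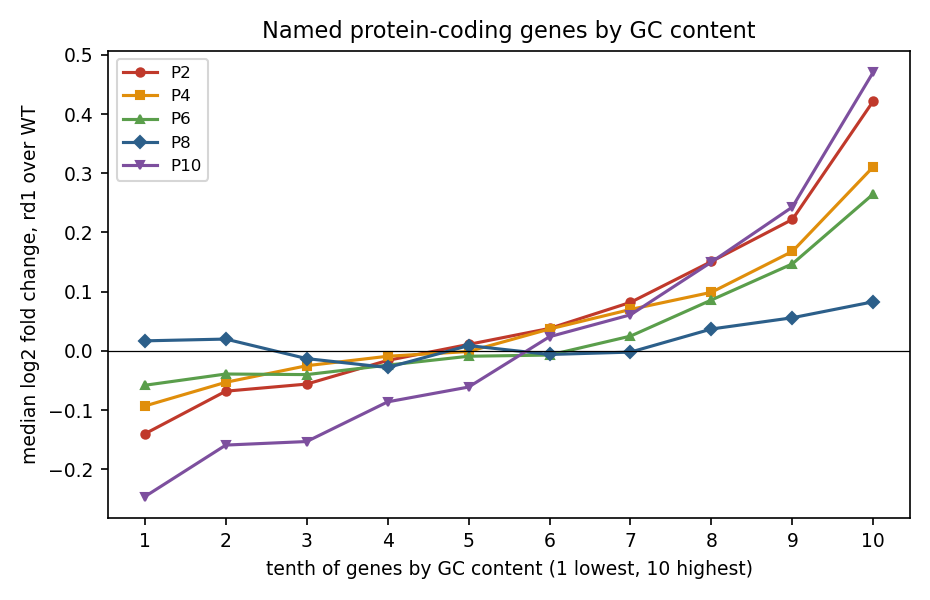
Median log2 fold change of named protein-coding genes in 10 equal groups by GC content, at each age. The P2 line climbs from -0.14 to 0.42, and the P8 line stays between -0.03 and 0.08.

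Calls of P2 were then followed over the other ages, in libraries that P2 does not share. Of the 183 higher genes 93 (50.8%) were called higher at P4, 80 at P6, 42 (23%) at P8 and 107 at P10. Of the 104 lower genes 53 were called lower at P4, 47 at P6, 49 (47.1%) at P8 and 69 at P10. Of all genes tested, 2.95% were called at P4, 2.62% at P6, 3.7% at P8 and 12.6% at P10, in either direction. Among the 59 genes whose calls held without each library, 20 of 30 higher and 28 of 29 lower were also called at P8 in the same direction. Fam69a, Tshz2, Klhl33 and Slc6a2 were among them, with P8 values of 2.67, 2.77, 4.21 and 1.53, as was Copa (-0.47). Cspg5 (0.05), Zfp949 (-0.07) and Srf (0.14) were not. Of the 59 genes, 28 higher and 18 lower have no near-identical copy, and their P8 calls were not counted apart. Rpl26 (-1.45) and Ahcy (-3.66), not called at P2 when summed with their copies, were among the lower genes called at P8.

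Few genes differed at P2 by an amount that itself differed from the later ages. The effect at P2 minus the mean effect at the 4 later ages was tested in the same fit, and 3 of 18608 genes (0.0161%) passed, 2 with a higher value at P2 (0.0107%) and 1 with a lower one (0.00537%). Mmp2 had a difference of 2.16 ± 0.24 (edgeR adjusted p 0.000154). In rd1 its level at P2 was 85.2 and 108 CPM. By P4 it was 53.7 and 65.4, by P6 37.5 and 45.7, by P8 between 24.6 and 34.3, and by P10 20.4 and 23.5. In WT it stood at 10.7 and 13.4 at P2 and 22.4 to 24.2 at P10, so the genotypes met by P10. Pttg1 (securin, which holds sister chromatids together until anaphase) had a difference of 2.55 ± 0.34 (edgeR adjusted p 0.00135). It stood at 24.6 and 18.9 CPM in rd1 against 8.91 and 6.96 in WT at P2, and at 1.03 and 1.13 against 8.32 to 11.1 at P10, on the other side of WT. At P2 alone its call was lost without rd1 library 1 (0.0915) or WT library 2 (0.0564). Slc15a2 had a difference of -4.33 ± 0.69 (edgeR adjusted p 0.0165). It remained low in rd1 at later ages, at 3.94 to 11.3 CPM at P8 against 91.7 and 129 in WT, but was lowest at P2. The difference of Mmp2 held without each P2 library (adjusted p up to 0.0271). That of Pttg1 was not called without WT library 2 (0.0533), and that of Slc15a2 without any 1 of the 4 (0.0533 to 0.542).

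**Figure D5:**
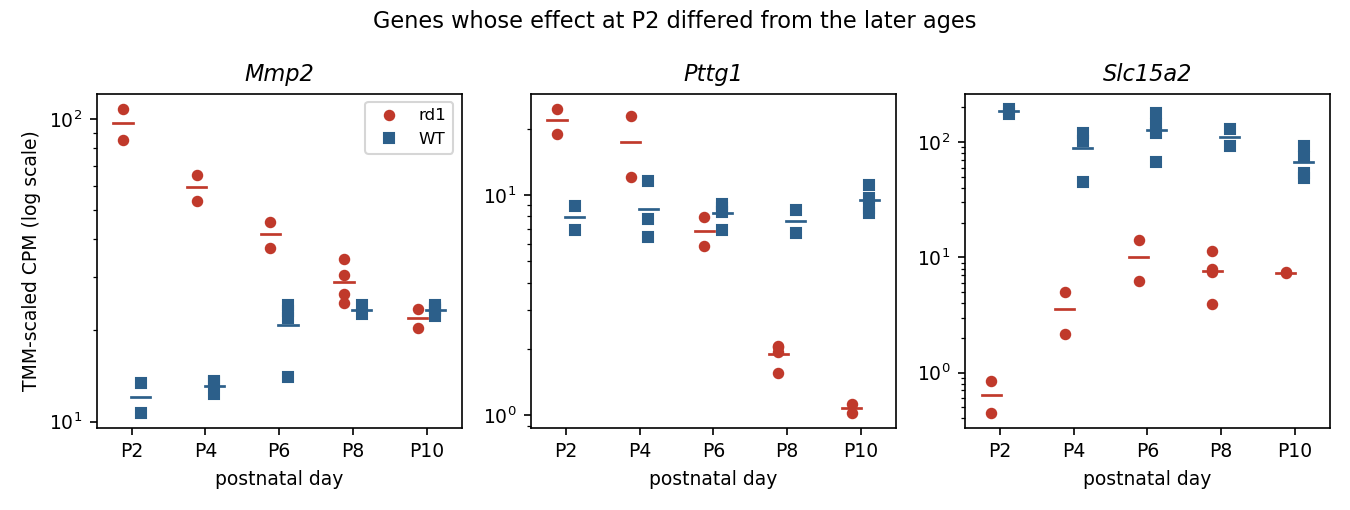
Levels of Mmp2, Pttg1 and Slc15a2 in each library over age (TMM-scaled CPM, log axis; rd1 circles, WT squares, bars the means). Mmp2 of rd1 falls from 85.2 and 108 CPM toward WT, Pttg1 of rd1 passes from above WT to below it, and Slc15a2 of rd1 stays below WT throughout.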

How the data were processed

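RNA of GFP-sorted cells was measured in 28 libraries, 4 of them at P2. Per the submitters' processing notes, the authors used kallisto 0.42.4, edgeR 3.32.1 and the build GRCm38.p5. The deposited gene and transcript tables hold the authors' expected counts (estimated counts, fractional). The deposited CPM table holds the authors' CPM and equalled gene counts over library totals within 5.82e-11. Counts were rounded and tested with edgeR 4.0.16 in R 4.3.3: filterByExpr, TMM, 1 mean per age and genotype, quasi-likelihood F test (two-sided, 17 residual degrees of freedom), Benjamini-Hochberg over all genes, threshold 0.05. P6 rd1 replicates 1 and 3 were near-identical (chi-square per degree of freedom 2.71, against 10.4 to 120 in 28 other pairs of replicates) and were averaged, giving 27 samples. Per table, 1 column matching no labelled sample was left out. SE is the log2 fold change over the root of F. Classes follow gene_biotype and symbol. Copies were found with blastn 2.17.0 among GENCODE M21 transcripts. The rule for named genes took Pde6b, the 12 most abundant calls in each direction, the 10 smallest p-values outside the 8 largest changes, up to 4 members of each list, the 3 most abundant calls of each other class in each direction, and 8 for the difference from later ages in each direction. Some genes the rule names are not reported here. Outside the rule, Fos, Nrl, Nr2e3, Mki67, Top2a, Opn1sw, Rxrg, Gm42418, Osgep, Psmb5, Ublcp1, Cdc26, Kctd15, Nr2f6 and the copies named beside their parents were chosen after their values were seen. Members and the 42 lists were chosen with earlier results of these data known. DESeq2 1.42.0 was an alternative, and the edgeR test was tested on simulated data.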

Additional observations from a re-analysis of the deposited data

Results flagged for a closer look

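In 3 genes the effect at P2 differed from the mean effect of the later ages in edgeR's test of that difference. The differences were 2.16 for Mmp2, 2.55 for Pttg1 and -4.33 for Slc15a2 on the log2 scale. For Mmp2 the effects at P2, P4, P6, P8 and P10 were 3.00, 2.18, 1.00, 0.31 and -0.09. For Pttg1 they were 1.46, 1.02, -0.27, -2.02 and -3.10, and for Slc15a2 -8.16, -4.65, -3.64, -3.85 and -3.20.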

How the results depend on the processing

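The protein-coding genes called at P2 (287) came to 153 in a fit of the 4 P2 libraries alone, 518 with DESeq2, 471 without P6 WT replicate 1 and 68 with a replicate block. All genes called at P2 (522) came to 319, 826, 784 and 162. Without 1 P2 library they ran from 102 to 638 and from 207 to 900. Whether replicate numbers pair the libraries could not be decided from the P2 counts. With 2 libraries a group, both same-number pairs must give the same correlation (0.138) and crossed pairs its negative (-0.138). The replicate block is therefore given as an alternative. Under it 63 of the 287 remained called. The count for P2 effect minus the mean effect of later ages (3) came to 20 with DESeq2, 12 with no filter on low counts, 5 with all 28 libraries kept apart, 0 with the replicate block (551 at an unadjusted p under 0.05) and 1 to 2 without 1 P2 library. The other alternatives run kept these counts within 1.5 times: RLE size factors, a stricter filter, counts thinned to the smallest library's total (258 named calls), protein-coding genes only, the GC correction and summed copies (202). With copies summed, Rpsa (0.60), Ahcy (0.39), Lsm7 (0.44) and Adnp (-0.036) reversed, none of them called. These values are of the gene and its copies together. Of 1444 values of 85 genes, 1124 kept direction and side of the threshold, 294 lost the call, 22 gained it and 4 reversed.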

Other observations

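Of 2625 genes of other biotypes tested, 66 (2.51%) were lower in rd1 at P2 and 19 (0.724%) higher, beside 1.38% and 1.42% of all genes. The median of the class was -0.26, and it took 2.18% and 2.03% of counts in rd1 and 3.06% and 2.41% in WT. Kcnq1ot1, the long antisense transcript of the imprinted Kcnq1 domain, stood at 77.0 and 72.3 CPM in rd1 and at 184 and 133 in WT (-1.09 ± 0.23, edgeR adjusted p 0.00785), and was called in 1 of the 4 leave-one-out fits, the one without WT library 2. Gm17167, a processed transcript, stood at 5.87 and 7.34 CPM against 249 and 183. Of 1010 lincRNAs 11 were higher and 25 lower. Of 8 mitochondrial transfer RNA genes tested 6 were lower, at a median level of 0.81 CPM, which is close to the limit of 3 counts per library (0.147 to 0.231 CPM).

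Histone genes split by gene. Of 27 tested 4 were higher and 1 lower, beside 1.27% and 0.722% of all named genes. Of the 4, Hist1h2ae, Hist1h2ai and Hist2h2bb were low, Hist1h2ae at 1.11 and 0.97 CPM in rd1, Hist1h2ai at 3.13 and 1.89, and Hist2h2bb at 1.69 and 2.32, each under 0.1 CPM in WT, and Hist1h2ae and Hist1h2ai are near-identical copies of each other. H2afx, the variant histone phosphorylated at DNA breaks, stood at 120 and 91.7 CPM in rd1 and at 33.6 and 36.1 in WT (1.60 ± 0.33, edgeR adjusted p 0.00642), and was not called without rd1 library 1 (0.0791) or WT library 1 (0.106). Hist2h2be stood at 15.9 and 15.6 CPM against 44.1 and 48.9 (-1.56 ± 0.23, edgeR adjusted p 0.000165), and its call held in all 4 fits. On chromosome 8, 17 of 760 named genes tested were higher and 0 lower, while 1.27% of all named genes were higher and 0.722% lower. Rnase9 was read at 10.5 and 22.7 CPM in rd1 and in 0 counts in both WT libraries, at least 73.0-fold higher against a floor of 3 counts per library.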
